A study of Homo sapiens with 6 samples.

Results

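The region described here is a segment of the short arm of chromosome 9, from 11 to 22 Mb in the human genome build hg38. Its members are the peaks of GSE1, a chromatin protein that associates with the histone demethylase LSD1, whose start lies in this window. They number 907 of 21401 peaks (4.24%) in DMSO-treated cells and 735 of 13233 peaks (5.55%) in MC2580-treated cells, or 1642 of 34634 in all. The segment was chosen by the density of its peaks, so that its density is given below as a description and not as a finding.

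NB4 is a human acute promyelocytic leukaemia cell line. The cells carried a lentiviral pLEX_307 construct with V5-tagged GSE1 (transcript variant 2) or the empty vector (EV), and whether these were clones was not stated. Chromatin immunoprecipitation followed by sequencing (ChIP-seq) used an antibody to V5, after 24 h with DMSO or with 2 µM MC2580, an inhibitor of LSD1, while the EV cells were untreated. The tagged protein was expressed from the construct, so that the peaks describe the introduced GSE1 and not the endogenous protein. Each of the 6 groups, of which 3 were ChIPs and 3 were inputs of sonicated chromatin, held 1 library. The question was where GSE1 lies along this segment and how the list obtained after LSD1 inhibition differs from that of the vehicle.

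The 2 lists were called against the respective input and against the same EV ChIP, which they therefore share as a control. Every peak carried a score, minus 10 times the log10 of the p-value given by the peak caller, so that the calling threshold of 1e-05 equals a score of 50. As each condition had a single library, no difference has a replicate check and the conditions were not tested against each other. The depth of the libraries was unknown. Differences below are differences between 2 libraries. Intervals are 95% intervals (Wilson for shares, order statistics for medians) and cover counting error only. The lists were also not cut alike: the lowest score was 51.59 in DMSO and 50.04 in MC2580, so that 52 MC2580 peaks of the segment (899 in all) scored below any DMSO peak. The running numbers of the DMSO peaks reached 22566, with 1165 numbers absent, 40 of them within the segment, whereas the MC2580 numbers had no gaps.

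Type I interferons are secreted antiviral cytokines. In humans their genes, IFNB1, IFNW1, IFNE and a family of closely similar IFNA genes, lie together on the short arm of chromosome 9. They signal through the receptor subunits IFNAR1 and IFNAR2 and the kinases JAK1 and TYK2 to a factor complex that includes IRF9 and binds the interferon-stimulated response element (ISRE) of target genes. The same segment holds MLLT3, which encodes AF9, a reader of acylated histones in the super elongation complex and a fusion partner of KMT2A in acute leukaemia. LSD1 removes methyl groups from histone H3 and works in repressive complexes, and its inhibition induces differentiation of myeloid leukaemia cells.

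The sequences that carry the description are printed first. Of the 16 type I interferon genes in GENCODE version 44, 13 had a promoter in RefSeq (GRCh38.p14), and a peak reached the 250 bases before the start site in 2 of these. They are the promoters of IFNA2 (chr9:21385399-21385648, minus strand), under a DMSO peak, and of IFNA14 (chr9:21240006-21240255, minus strand), under an MC2580 peak. They are written 5′ to 3′ along the gene, and capitals mark the bases inside the peak, 109 of 250 for IFNA2 and 230 of 250 for IFNA14.
IFNA2 promoter: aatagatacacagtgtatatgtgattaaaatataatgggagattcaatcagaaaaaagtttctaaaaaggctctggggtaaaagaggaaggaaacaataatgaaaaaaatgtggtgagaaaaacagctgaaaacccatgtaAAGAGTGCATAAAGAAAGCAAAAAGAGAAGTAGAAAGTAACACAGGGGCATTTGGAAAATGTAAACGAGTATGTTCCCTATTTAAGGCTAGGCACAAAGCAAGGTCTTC
IFNA14 promoter: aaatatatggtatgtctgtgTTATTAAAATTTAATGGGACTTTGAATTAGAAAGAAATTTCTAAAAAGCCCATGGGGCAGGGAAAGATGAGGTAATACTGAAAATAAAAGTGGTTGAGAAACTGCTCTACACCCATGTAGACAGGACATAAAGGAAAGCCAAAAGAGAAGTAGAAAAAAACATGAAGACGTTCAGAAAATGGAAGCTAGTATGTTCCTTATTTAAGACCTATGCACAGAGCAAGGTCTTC

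The 5 highest DMSO peaks and the highest MC2580 peak of the segment lay outside promoters, and the central 200 bases of 2 of these are shown, with the plus strand of hg38. The first is from the third highest DMSO peak, between PLIN2 and DENND4C (chr9:19162054-19162253), and capitals mark a match to the ISRE word. The other is from the highest MC2580 peak, in an intron of CCDC171 (chr9:16030492-16030691).
DMSO peak with a score of 716.36: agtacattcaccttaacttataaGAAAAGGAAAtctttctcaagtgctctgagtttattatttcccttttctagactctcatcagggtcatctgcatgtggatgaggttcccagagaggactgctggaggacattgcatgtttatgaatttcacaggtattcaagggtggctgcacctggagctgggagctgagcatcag
MC2580 peak with a score of 441.31: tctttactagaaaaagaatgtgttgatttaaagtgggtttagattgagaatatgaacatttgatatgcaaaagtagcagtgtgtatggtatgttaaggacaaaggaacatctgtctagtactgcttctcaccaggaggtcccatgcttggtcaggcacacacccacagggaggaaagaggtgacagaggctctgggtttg

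The last sequence is the centre of the last peak of either list before the peaks stop inside the interferon cluster (chr9:21444267-21444466, plus strand), and capitals mark a RUNX word.
Last DMSO peak, with a score of 115.97: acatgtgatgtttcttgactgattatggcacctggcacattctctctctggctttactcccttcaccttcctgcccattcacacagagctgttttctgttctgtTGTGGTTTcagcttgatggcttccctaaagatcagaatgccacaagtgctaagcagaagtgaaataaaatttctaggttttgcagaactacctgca

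Along the segment the peaks rose unevenly from its start to a maximum from 19 to 20 Mb and fell again towards the interferon genes. From 11 to 14 Mb the 1 Mb bins held 20, 25 and 47 DMSO peaks and 24, 19 and 35 MC2580 peaks. The next bins, over NFIB, CER1, FREM1, SNAPC3 and PSIP1, held 67 and 112 DMSO and 58 and 71 MC2580 peaks. The densest stretch came after this, with 150 and 132 peaks from 16 to 17 Mb, at CCDC171 and BNC2, 130 and 110 from 18 to 19 Mb, at ADAMTSL1 and SAXO1, and 197 and 153 from 19 to 20 Mb, at PLIN2, RPS6, ACER2 and SLC24A2. Between them, the bin with CNTLN and SH3GL2 held 65 DMSO and 73 MC2580 peaks. The bin with MLLT3 and FOCAD held 65 and 45 peaks, and the last bin, with the interferon genes, 29 and 15. The 5 bins from 15 to 20 Mb thus held 654 of the 907 DMSO and 539 of the 735 MC2580 peaks.

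MC2580 peaks were fewer in 9 of the 11 bins and more numerous in 2, and the ratio of MC2580 to DMSO peaks ran from 0.517 in the last bin to 1.20 in the first. Over the whole segment it was 0.810 by number and 0.722 by covered length (715358 against 990541 bp). All other sequence had a ratio of 0.610 by number. The neighbouring stretches of chromosome 9 gave 0.824 (0 to 11 Mb, 1264 and 1041 peaks) and 0.814 (22 to 43 Mb, 1033 and 841), and the dense stretch of chromosome 12 from 18 to 30 Mb gave 0.891. The value of the segment thus lay beside those of the other dense stretches and above that of the rest. The GC content of the bins, from 34.9% to 41.3%, moved with the DMSO counts (Spearman rho 0.92 over 11 bins of the same library, as a description), and its part in the counts was not tested.

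**Figure D1:**
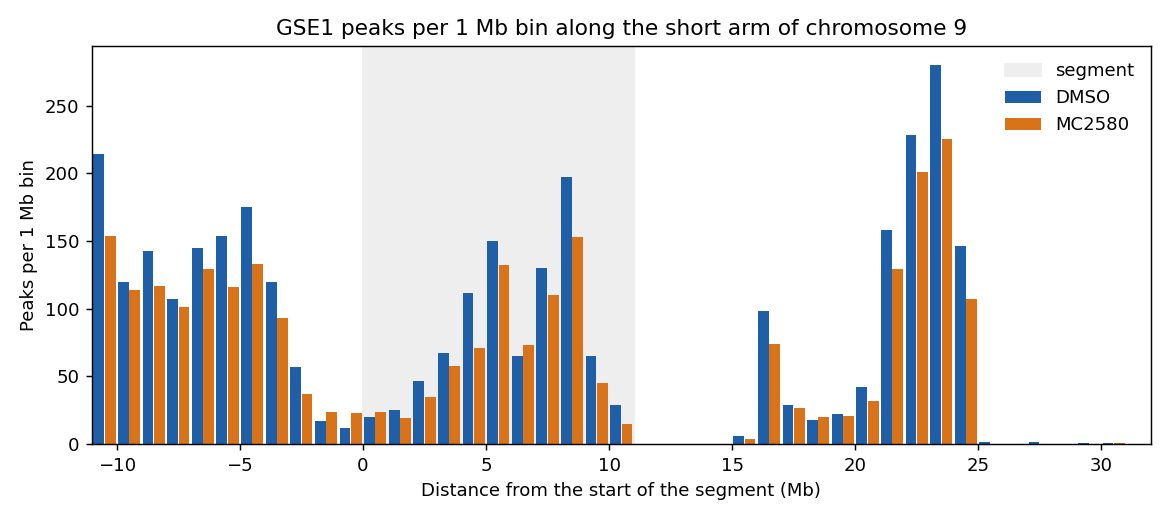
Number of GSE1 peaks per 1 Mb bin (vertical axis) against distance from the start of the segment in Mb (horizontal axis), for the DMSO and MC2580 libraries, with the segment shaded. Counts climb unevenly to 197 and 153 in the bin that begins 8 Mb into the segment, fall to 29 and 15 in its last bin, and are 0 in the 4 bins after it.

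The peaks did not end at 22 Mb. The last DMSO peak lay at chr9:21443708-21445025 (score 115.97) and the last MC2580 peak at chr9:21392824-21393669 (53.15), and the next peaks were at chr9:26923937-26924813 (58.27) and chr9:26927915-26928985 (95.66). No peak of either list lay in the 5478911 bp between, which hold no unsequenced bases. This empty run began 554975 bp before the end of the segment, between IFNA1 and IFNE, so that the boundary is inside the interferon cluster. Before it, 84 peaks of both lists lay within 1 Mb, and 176 lay within 1 Mb after it. Within the segment the median distance between neighbouring peaks was 3189 bp and the longest 144758 bp.

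The empty run covered IFNE, an interferon of epithelia, then MTAP, of methionine salvage, and the cell cycle inhibitor genes CDKN2A and CDKN2B. Further on it covered DMRTA1, ELAVL2, IZUMO3, TUSC1, CAAP1 and the start of the PLAA span. Across the genome 606 runs of at least 1 Mb were without a peak, and this one ranked 36 by length. Of these runs 7 had at least 20 peaks in the 1 Mb on each side. By sequenced length the one described here was second among them to a run on chromosome Y, where 30118708 of 45078536 bp are unsequenced. The next was one of 5114954 bp on chromosome 10. The segment was chosen for its density, so that a dense flank was given by the choice and nothing is read from this rank. Whether reads were present in the empty run in the ChIP, EV and input libraries was not tested, since only peaks were analysed. The lower boundary at 11 Mb was no edge: the bin before it held 12 DMSO and 23 MC2580 peaks, against 20 and 24 in the bin after it.

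The interferon cluster, from IFNB1 to IFNE (chr9:21077104-21482313, 405 kb), held 61.7 DMSO and 29.6 MC2580 peaks per Mb, against 83.2 and 68.2 in the rest of the segment. There were 25 DMSO peaks, with a median score of 78.96 (67.25 to 98.46; range 52.33 to 206.02), and 12 MC2580 peaks, with a median of 53.15 (51.3 to 107.03; range 50.72 to 157.48). Only 2 DMSO peaks overlapped an MC2580 peak, 8.0% (2.22 to 24.97), against 31.3% (28.3 to 34.4) in the rest of the segment. In the other direction 2 of 12 MC2580 peaks overlapped, 16.7% (4.70 to 44.8), an interval that holds the 39.1% of the rest of the segment. Low DMSO overlap was not particular to the cluster. In the sparse bins from 11 to 14 Mb, 3 of 20, 2 of 25 and 6 of 47 DMSO peaks overlapped, shares within the cluster's interval. Bins with 65 to 67 DMSO peaks, nearer to the cluster in density, had 24.6% to 26.9%, around the upper end of that interval. The part of density in the overlap was not tested. In the cluster scores of 100 or more were held by 7 DMSO peaks, 28.0% (14.3 to 47.6), and by 3 of 12 MC2580 peaks (8.89% to 53.2%). The rest of the segment had 25.6% and 20.1%. Of the MC2580 peaks of the cluster 5 scored below the lowest DMSO score, which leaves 7. The share of MC2580 among the peaks of both lists was 32.4% (19.6 to 48.5) in the cluster and 45.0% (42.6 to 47.5) in the rest of the segment, so that at these counts a lower share was not detectable.

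At the start sites of the 16 interferon genes, a DMSO peak within 3 kb was found at 8, an MC2580 peak at 3, neither at 5 and both at 0. Among all 20033 protein-coding genes 16.1% had a DMSO peak and 7.87% an MC2580 peak so placed. The segment was chosen for its density, however, and nothing is read from this difference. The share of all genes with both is not given. At 8 and 3 of 16 genes the count of 0 is too small to be read as exclusion.

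In DMSO, IFNB1, the early interferon of virus-infected cells, had a peak of score 82.66 lying 2131 bp from its start. IFNW1 had one of 82.92 at 663 bp. IFNA2, an interferon used as a drug, had one of 96.98 over the start site itself, the highest of the IFNA genes. The first 2 scores were close to the median of DMSO peaks in the segment, 79.2, and the third lay under the upper quartile, 100.8. IFNA8 had 2 peaks, the nearer of 85.81 at 1664 bp, IFNA1 had one of 74.63 at 1521 bp, and IFNA6 one of 57.67 at 1541 bp. IFNA7 and IFNA10 shared a single peak of 53.44, between the genes. At these 8 genes the MC2580 list had no peak so near. The closest to IFNB1 was 9772 bp away, with a score of 60.92.

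In MC2580, IFNA14 had a peak of 61.07 over its start, IFNA17 one of 53.15 at 2329 bp and IFNA5 one of 51.31 at 792 bp. The last is below the lowest score of the DMSO list, so that a DMSO peak of that strength would not be listed. IFNA21, IFNA4, IFNA16, IFNA13 and IFNE had no peak within 3 kb in either list.

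The highest peaks of the cluster lay between its genes. DMSO peaks of 206.02 (chr9:21286125-21287557) and 179.98 (chr9:21294586-21295820), on the side of IFNA5 towards IFNA14, were the 2 that overlapped MC2580 peaks, whose scores were 50.76 and 84.38. DMSO peaks of 170.28, 159.15 and 125.16 had no MC2580 counterpart. The highest MC2580 peak, 157.48, lay 815 bp from a start site of KLHL9, which encodes an adaptor of a CUL3 ubiquitin ligase and sits among the interferon genes. It did not overlap the DMSO peak of 54.78 at that start site.

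**Figure D2:**
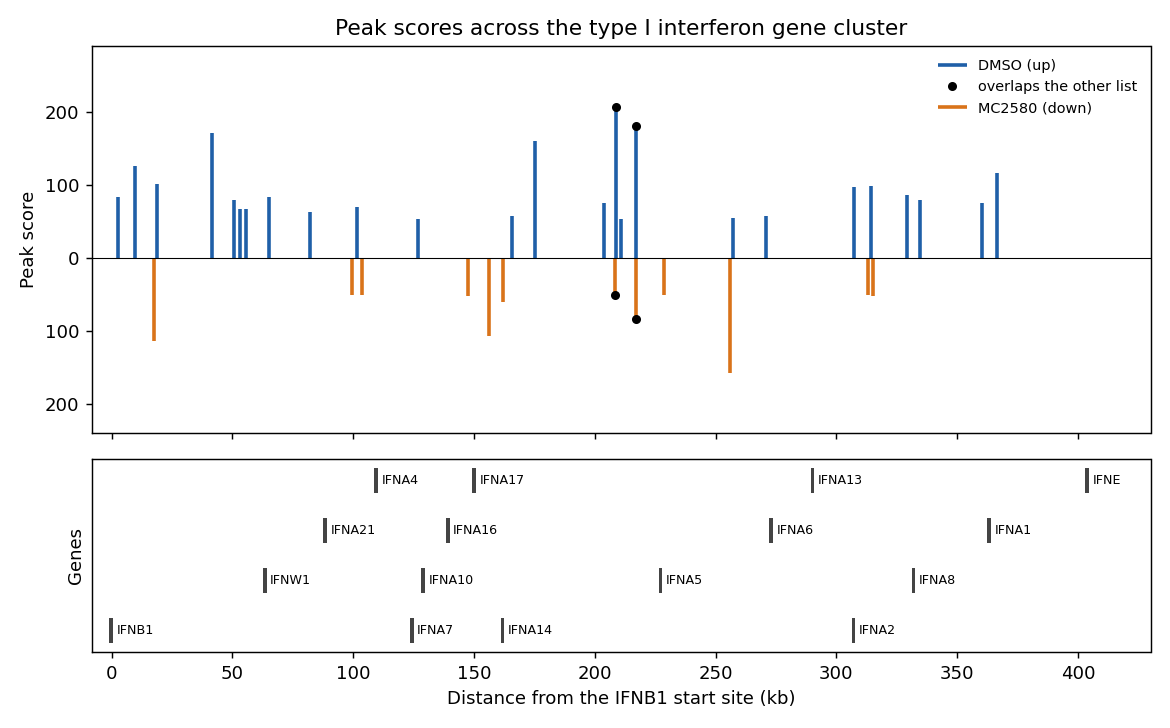
Peak scores (vertical axis, DMSO up and MC2580 down) against distance from the IFNB1 start site in kb (horizontal axis), with the 16 type I interferon genes below. The 25 DMSO and 12 MC2580 lines rarely meet, the 2 overlapping pairs are marked by points, and no line lies beyond IFNA1 towards IFNE except the last DMSO peak.

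Only reads with a unique match were kept in the processing, and the IFNA genes are near copies. The share of 50-base words of a gene that recur within the 600 kb around the cluster was 78.6% for IFNA13, 62.3% for IFNA4, 60.8% for IFNA1, 48.7% for IFNA10 and 45.0% for IFNA17, but 0.822% for IFNA2, 12.7% for IFNA14 and 0 for IFNB1 and IFNE. Absence of a peak over the body of the former genes is therefore uncertain. The ISRE word (GAAA, any 2 bases, GAAA, on either strand) was found in 2 of the 13 promoters, those of IFNA1 and IFNA13, and in 3.02% of 35116 RefSeq promoters of the same length. Neither promoter was under a peak.

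The genes of the interferon pathway lie elsewhere in the genome. Of 11 genes of receptors, kinases, factors and feedback regulators, 2 carried a DMSO peak near a start site, by the same 3 kb, and 2 an MC2580 peak, counts too small to set against the 16.1% and 7.87% of all protein-coding genes. TYK2 reached 3100 in both lists, a value that many of the strongest peaks share, so that no order is read from it. IRF1, a transcription factor induced by interferons, had 551.25 in DMSO and 101.24 in MC2580. IFNAR1, IFNAR2, JAK1, STAT2, IRF9, IRF3, IRF7, USP18 and SOCS1 had no peak within 3 kb in either list.

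MLLT3 carried 15 DMSO and 9 MC2580 peaks over its 281 kb, or 5.34 and 3.20 per 100 kb, of which 1 DMSO peak overlapped an MC2580 peak. The highest were 181.39 in DMSO and 120.44 in MC2580. Within 3 kb of a start site the highest DMSO score was 121.73 (chr9:20623202-20624338, 703 bp away). The highest MC2580 score was 59.01 (chr9:20408518-20409227, 2735 bp away). These peaks lay at different start sites, so that the 2 scores do not compare a shared site.

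The genes with most peaks over their span were large ones. ADAMTSL1, which encodes a secreted glycoprotein of the ADAMTS-like family, held 110 DMSO and 90 MC2580 peaks over 1004 kb, and 40 of each overlapped the other list. For DMSO this was 36.4%. In the segment 30.7% of DMSO and 38.8% of MC2580 peaks overlapped, and over all peaks 33.6% and 58.0%. SAXO1, a microtubule protein of cilia, held 56 and 48 and was the most densely covered of the 6, with 29.4 and 25.2 peaks per 100 kb. SLC24A2, a sodium, potassium and calcium exchanger, held 54 and 41. BNC2, a zinc finger protein, held 48 and 38, and CCDC171 40 and 30. CNTLN, a centrosomal protein, was the only one of the 6 with more MC2580 peaks, 33 against 23, although its strongest DMSO peak scored 837.21 and its strongest MC2580 peak 147.58.

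Of the 29 protein-coding genes that are not type I interferons, 25 carried a DMSO peak near a start site (3 kb) and 20 an MC2580 peak. All 20 also carried a DMSO peak. Among these the highest peak scored lower in MC2580 at 14 genes (70.0%, 48.1 to 85.5) and higher at 6. The highest peaks of the 2 lists could lie at different start sites of a gene, as at BNC2, CCDC171 and SAXO1. Shared sites are thus not compared, and no share over all protein-coding genes is set beside these counts. SAXO1 and RRAGA shared their DMSO peak, so that the genes are not independent. The largest DMSO scores at start sites were 414.79 at RPS6, of the small ribosomal subunit, 324.36 at SNAPC3, of the complex that activates small nuclear RNA genes, and 312.27 at PSIP1, which encodes the chromatin tether LEDGF. In MC2580 they were 51.94, 150.14 and 188.39.

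PLIN2, a coat protein of lipid droplets, had 261.98 in DMSO and 185.75 in MC2580, and FOCAD 229.36 and 66.33. The PLIN2 values were from different sites, and the MC2580 peak of 185.75 overlapped a DMSO peak of 168.58. The order of the highest scores was the other way at ACER2, a Golgi ceramidase, with 165.72 in DMSO and 327.48 in MC2580. That MC2580 peak overlapped 2 DMSO peaks. At CER1, a secreted antagonist of BMP and Nodal, the scores were 67.36 and 138.88, also higher in MC2580. TTC39B had 72.14 and 141.51, in peaks at different sites that did not overlap. TYRP1, MPDZ, ZDHHC21, SLC24A2 and HACD4 had a DMSO peak alone, and LURAP1L, SH3GL2, MTAP and CDKN2A none.

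Of the 5 highest DMSO peaks, 3 lay between PLIN2 and DENND4C, upstream of both genes. These were 525.96 at 3871 bp from PLIN2 (chr9:19153161-19156248), 716.36 at 11871 bp (chr9:19161161-19163147) and 1289.4 at 32686 bp (chr9:19181976-19185464). The highest overlapping MC2580 peaks scored 226.88, 154.96 and 143.05, in the reverse order. The DMSO peaks of 525.96 and 1289.4 each overlapped 2 MC2580 peaks, the lower ones scoring 59.95 and 72.03. The order of the whole sites is thus not read from these scores. The whole stretch of 81.1 kb, chosen after these values were seen, held 21 DMSO and 26 MC2580 peaks, of which 15 and 17 overlapped the other list. In the segment 30.7% and 38.8% overlapped, and over all peaks 33.6% and 58.0%. The stretch was chosen for its high peaks, and overlap was more frequent at high scores, so that nothing is read from these counts. The median score of the stretch was 100.44 in DMSO and 73.1 in MC2580, and 11 and 8 peaks reached 100. MC2580 peaks were thus more numerous here, and lower. They covered 27462 bp against 33699 bp in DMSO.

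**Figure D3:**
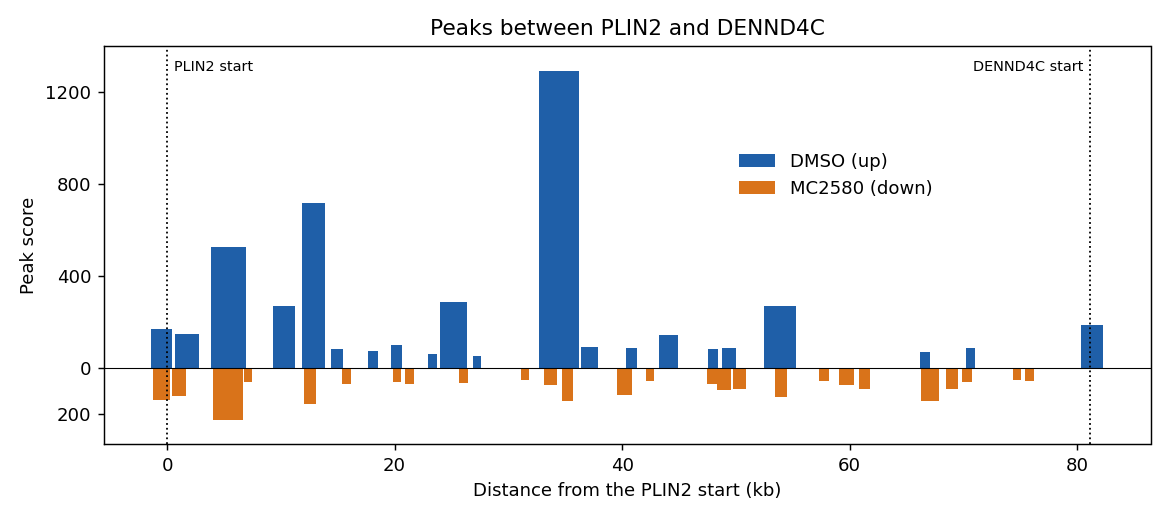
Peak scores (vertical axis, DMSO up and MC2580 down) against distance from the PLIN2 start in kb (horizontal axis), with each bar as wide as its peak and dotted lines at the starts of PLIN2 and DENND4C. The DMSO peaks of 525.96, 716.36 and 1289.4 rise above the rest, and no MC2580 peak exceeds 226.88.

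The other 2 of the 5 were intronic. The CNTLN peak (chr9:17176913-17179157) scored 837.21 in DMSO and 139.03 in MC2580, the lowest ratio among the single pairs of the segment. The CCDC171 peak (chr9:16029691-16031997) scored 664.58 and 441.31, and was the highest of the MC2580 list, where it was also wider, 2978 against 2307 bp. The next MC2580 peaks were 327.48 at ACER2, 276.33 at 251338 bp from MLLT3 (78.72 in DMSO), 226.88 near PLIN2 and 226.27 at the end of ADAMTSL1.

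The highest DMSO peaks with no MC2580 counterpart scored 336.52, 285.35 and 277.11, and lay between CCDC171 and BNC2 (chr9:16119646-16122254, chr9:16281336-16284105 and chr9:16288535-16290793). The last 2 were in introns of the noncoding RNA gene LINC03041. The highest MC2580 peaks with no DMSO counterpart scored lower. They were 190.61 in an intron of ADAMTSL1, 181.1 at 119123 bp from NFIB and 167.14 in an intron of SH3GL2, a gene of synaptic vesicle endocytosis.

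The scores in the segment were lower than in all other sequence in both lists. Their median was 79.2 (77.28 to 81.41) in DMSO and 70.46 (67.58 to 72.66) in MC2580, against 92.14 (91.17 to 93.32) and 78.75 (77.83 to 79.63) in all other sequence. The stretch from 0 to 11 Mb was also lower, with 83.28 (80.62 to 85.62) and 74.04 (71.8 to 76.42). Not all dense stretches were: from 22 to 43 Mb the medians were 89.65 (86.33 to 92.4) and 81.32 (78.8 to 84.03). On chromosome 12 they were above all other sequence, with 96.09 (93.41 to 98.59) and 87.14 (85.37 to 89.07). Scores of 100 or more were held by 233 DMSO peaks, 25.7% (22.95 to 28.6; 44.3% of the whole list), and 148 MC2580 peaks, 20.1% (17.4 to 23.2; 33.8% of the whole list). The highest scores were 1289.4 and 441.31, and none came near the shared value of 3100. The median width was 964 bp in DMSO and 887 bp in MC2580.

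Overlap between the lists, by at least 1 bp, was found for 278 DMSO peaks, 30.7% (27.7 to 33.7), where 33.6% of all DMSO peaks overlapped. For MC2580 it was found for 285 peaks, 38.8% (35.3 to 42.3), where 58.0% of all MC2580 peaks overlapped. Over all scores the DMSO share was thus near the background and the MC2580 share below it. The MC2580 share was also below it from 0 to 11 Mb, with 458 of 1041 peaks (41.0% to 47.0%), near it from 22 to 43 Mb, 55.6% (52.3 to 59.0), and above it on chromosome 12, 65.4% (63.3 to 67.5). Both lists together formed 1340 distinct regions, of which 261 (19.5%) were in both lists, 629 (46.9%) in DMSO alone and 450 (33.6%) in MC2580 alone.

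The lower MC2580 share was seen within classes of score. At a score from 75 to 100 it was 39.2% (32.3 to 46.6) in the segment and 59.3% over all peaks, and from 100 to 200 it was 60.9% (52.5 to 68.6) and 81.9%. Above 200 all 10 MC2580 peaks overlapped a DMSO peak. For DMSO the share was above that of all peaks in each class. It was 19.1% (15.6 to 23.2) against 12.9% under 75, and 30.3% (25.1 to 36.0) against 22.7% from 75 to 100. From 100 to 200 it was 44.5% (37.6 to 51.6) against 39.8%, and from 200 upwards 81.0% (66.7 to 90.02) against 76.7%, both intervals holding the value of all peaks. By bin the share ran, for DMSO, from 6.90% in the bin of the interferon genes to 45.7% from 19 to 20 Mb. For MC2580 it ran from 10.5% from 12 to 13 Mb to 59.5% from 19 to 20 Mb.

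In 232 single pairs a DMSO peak and an MC2580 peak overlapped each other alone. MC2580 had the lower score in 143 of them, 61.6% (55.2 to 67.7), where it had the lower score in 76.7% of all 5449 such pairs. The median ratio of MC2580 to DMSO score was 0.891 (0.807 to 0.941), against 0.638 over all pairs. The other dense stretches also lay above the value of all pairs. The ratio was 0.857 (0.792 to 0.925) from 0 to 11 Mb and 0.854 (0.825 to 0.899) on chromosome 12, within the segment's interval. From 22 to 43 Mb it was 0.785 (0.740 to 0.858), below that interval. The pairs of the segment started from lower DMSO scores, with a median of 91.9 against 156.3 over all pairs. By class of DMSO score the ratio was 1.31 under 75 (68 pairs), 0.912 from 75 to 100 (73), 0.637 from 100 to 200 (68) and 0.358 from 200 upwards (23). By class of MC2580 score it went the other way, from 0.690 under 75 (97 pairs) to 1.28 from 100 to 200 (69). Since each class was set by 1 of the 2 scores compared, no dependence on strength is read from them. A score also depends on depth, and its part in these ratios was not tested.

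**Figure D4:**
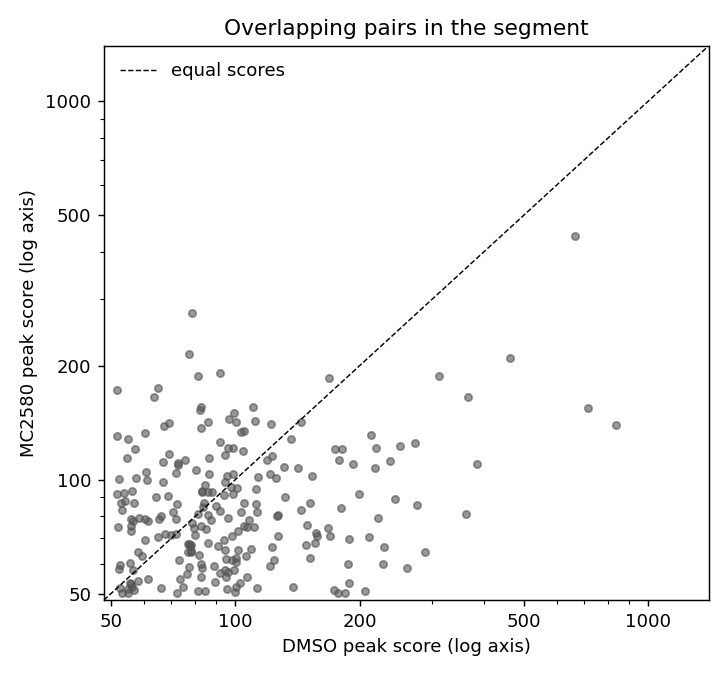
Score of the MC2580 peak (vertical log axis) against score of the DMSO peak (horizontal log axis) for the 232 single pairs of the segment, with a dashed line at equal scores. Of the points 143 lie below the line, and the CNTLN peak, at 837.21 and 139.03, lies farthest below it.

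The peaks lay on the parts of genes in shares near those of the sequence itself. For DMSO, however, only the intron share matched within its interval. Promoters, within 3 kb of any annotated start site, held 154 DMSO peaks, 17.0% (14.7 to 19.6), and 118 MC2580 peaks, 16.1% (13.6 to 18.9), while 14.1% of the 1 kb tiles of the segment were so classed. The tile values lay below the DMSO intervals of promoters and of exons, above that of distal intergenic sequence, and within those of MC2580. Over all placed peaks the promoter shares were 35.7% and 31.6%. Introns held 52.9% of the peaks of either list and 53.0% of the tiles. Exons and untranslated regions held 6.73% (5.27 to 8.54) and 5.58% (4.14 to 7.48) against 4.46%. Distal intergenic sequence held 23.4% (20.7 to 26.2) and 25.4% (22.4 to 28.7) against 28.4%.

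The PU.1, RUNX and AP-1 words, more frequent at peak centres than beside them elsewhere, were not detectably so in the segment. Words were counted on both strands in the central 200 bp and in windows 2000 bp to each side. The RUNX word (TGTGGTTT), of the core-binding factor, was in 1.98% (1.26 to 3.12) of DMSO centres and in 2.15% (1.58 to 2.93) of the windows beside them. In all other sequence it was in 4.73% (4.45 to 5.03) and 1.53%. The PU.1 word (GAGGAAGT), of the myeloid factor PU.1, was in 1.43% (0.840 to 2.44) of centres and 1.05% beside, against 2.98% (2.76 to 3.22) and 0.947% elsewhere.

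The AP-1 word (TGACTCA) was in 3.42% (2.42 to 4.81) of DMSO centres and 2.59% beside, and elsewhere in 6.43% and 3.21%. The GFI1 word (AAATCAC), of a repressor that recruits LSD1, was in 4.63% (3.44 to 6.20) and 3.58%, and the ISRE word in 2.54% (1.70 to 3.78) and 3.97%. In MC2580 the 5 words were as frequent in the segment's centres as beside within their intervals, for example 2.18% (1.34 to 3.51) against 1.90% for RUNX and 0.680% (0.291 to 1.58) against 0.952% for PU.1. The neighbouring dense stretches were alike for RUNX in DMSO, with 1.82% at centres and 1.94% beside from 0 to 11 Mb, 1.55% and 1.89% from 22 to 43 Mb, and 1.86% and 1.79% on chromosome 12. The PU.1 word, however, was in 1.74% (1.11 to 2.74) of DMSO centres from 22 to 43 Mb and 0.532% (0.298 to 0.951) beside.

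Peak centres did differ from their surroundings in base composition. The median GC content was 44.5% at DMSO centres and 39.5% beside, and 45% at MC2580 centres and 39% beside. In all other sequence it was 49% and 45.5% for DMSO, and 48.5% and 44% for MC2580.

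**Figure D5:**
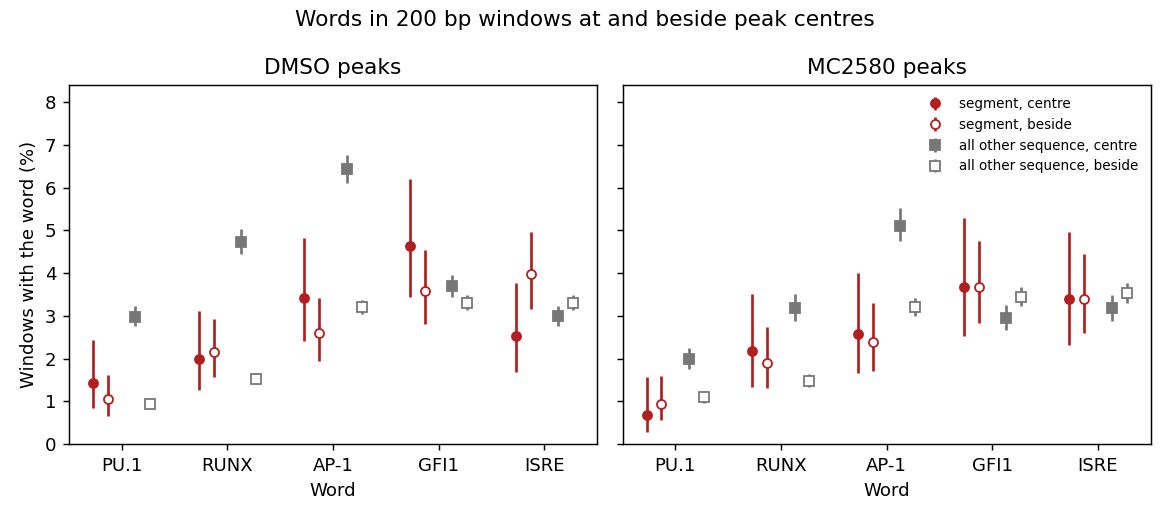
Share of 200 bp windows with each word (vertical axis, %) for DMSO peaks (left) and MC2580 peaks (right), at peak centres (filled) and beside them (open), in the segment (circles) and in all other sequence (squares), with Wilson 95% intervals. The PU.1, RUNX and AP-1 words stand higher at centres than beside in all other sequence, and the filled and open circles of the segment overlap in their intervals.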

How the data were processed

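Per the study's methods and the submitters' processing notes, the authors aligned reads to hg38 with Bowtie, kept unique matches with few mismatches, and called peaks with MACS 1.4.2 at a p-value threshold of 1e-05. Inputs and the EV ChIP served as background, but how the calls against each were combined was not stated. The deposited score of each peak is its p-value on a log scale (minus 10 times log10). It grows with depth, which was unknown, and was used to rank and filter peaks within a list.

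Here peaks were counted by start position, and overlap required at least 1 bp. Genes came from GENCODE 44, promoters from RefSeq. The members and lists were chosen with earlier results of these data known. Every protein-coding gene of the segment was counted. By rule, the text names all type I interferon genes, MLLT3, the 6 genes with most peaks over their span, the 5 highest peaks of each list, the 3 highest without a counterpart, and those at the boundaries; other genes of the segment could be named. Of the pathway genes 1, and of the peak sequences 2, are not reported here. Functions were tested on simulated data, where 600 of 600 planted overlaps and 500 of 500 planted words were found. Tools were pysam 0.24.0, scipy 1.17.1, pandas 2.3.3, numpy 2.4.6 and matplotlib 3.10.9 under Python 3.11.15.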

Additional observations from a re-analysis of the deposited data

How the results depend on the processing

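Of 65 values recomputed under other settings, 39 stayed within the counting error or within 1.5 times the count and 26 moved. Small differences between the lists did not keep their order: the promoter share was higher in DMSO as reported but higher in MC2580 at a score of at least 100 and with protein-coding start sites, and the order also turned for the AP-1, GFI1 and RUNX words at that score and for the RUNX and ISRE words in 400 bp windows. At that score the AP-1 word was in 2.58% of DMSO centres and 2.79% of the windows beside, the reverse of the reported order. At a score of at least 100, 233 DMSO and 148 MC2580 peaks were left (ratio 0.635), of 9480 and 4468 over all sequence. The ratio of 0.610 for all other sequence was counted without this cut and is not its background. At this score the DMSO overlap was 23.2%, and the promoter shares were 20.2% and 20.9%. Overlap fell to 25.4% of DMSO and 31.8% of MC2580 peaks when 50% of the shorter peak had to be shared, and to 16.9% and 20.8% with 50% of both. Peaks within 1 kb gave 43.9% and 52.4%. With only as many top DMSO peaks as MC2580 peaks, 34.3% of the MC2580 peaks overlapped. Start sites within 1 kb gave promoter shares of 9.26% and 7.76%, and protein-coding start sites 9.26% and 9.66%. In 400 bp windows, which hold more sequence, DMSO shares were 2.54% (PU.1), 3.64% (RUNX), 6.39% (AP-1), 8.71% (GFI1) and 6.28% (ISRE), and MC2580 shares 1.77% (PU.1), 5.44% (AP-1), 7.07% (GFI1) and 5.99% (ISRE). Leaving out peaks wider than 7875 bp removed none from the segment, and counting by peak centre moved none across its ends. A cut at the lowest DMSO score, chosen after seeing the data, gave a ratio of 0.753, for which the uncut 0.610 is no background either.

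No paired analysis was possible because each condition had 1 library. The unknown depth limits every difference in number and score.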
